A study of Rattus norvegicus with 64 samples.

Results

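The liver response to bromobenzene was compared between 10 h and 5 h after dosing, using all libraries whose tissue label is liver, 32 of the 64 libraries of the series. They form 4 groups of 8 Sprague Dawley rats each: rats dosed once with bromobenzene at 0.4 g/kg and sampled at 10 h, rats given 2% saline as vehicle and sampled at 10 h, and the same pair of groups at 5 h. The series description counts 32 rats in all, 8 for each condition and time, so the times are different rats. The sources used here give no age, sex, dosing route, clock time or feeding state, and the extraction text of the labels speaks of cultured cells although the tissue label is liver. Each liver library held 13789055 to 28308155 estimated counts.

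Bromobenzene is a model liver toxicant. Cytochrome P450 enzymes of the hepatocyte oxidize it to reactive epoxides and quinones, glutathione conjugates these products, and injury follows where glutathione runs short. Liver mRNA levels also change over the hours in untreated rodents, with feeding, fasting and the circadian clock. For this reason a change in the response between 10 h and 5 h has a part from treated animals and a part from vehicle animals, and both were measured here.

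The deposited tables identify transcripts by Ensembl ID, and 0 of the 31715 IDs could be matched to a gene with the reference tables at hand. Transcripts are therefore described by their levels, lengths and behaviour, 4 of them by ID, and neither cell type markers nor pathways were examined. The liver label was checked against kidney only: the lowest Spearman correlation between any 2 liver libraries was 0.938 (496 pairs, over transcripts), and the highest between a liver and a kidney library was 0.892. In whole liver, fewer cells of a type and less RNA per cell cannot be told apart, and this applies to every change below.

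The response, bromobenzene against vehicle, differed between 10 h and 5 h for 607 of 17535 transcripts tested, which is 3.46% (edgeR's quasi-likelihood test, Benjamini-Hochberg adjusted p under 0.05, used for all calls below). For 330 (1.88%) the response was more positive at 10 h, and for 277 (1.58%) it was more negative. The median size of these differences was 0.80 and 0.79 on the log2 scale, against 0.23 over all transcripts tested, with a median standard error of 0.18 in both directions. At least a 2-fold difference was found for 112 and 98 of them, and at least a 4-fold difference for 20 and 25. The largest had a size of 8.26 and was negative, in a transcript with a mean under 5 CPM. The 4 transcripts described next by ID are those with the largest differences at a mean of 5 CPM or more (counts per 1000000 of the TMM-scaled library). The balance of directions depended on the scaling. Scaling by library totals alone gave 505 more positive and 177 more negative, and moved the median of all transcripts to 0.10, while limma on log2(TPM + 1) gave 444 and 160.

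The largest positive difference among these was that of ENSRNOT00000017181.4, 1941 bases long. It reached a mean of 5 CPM only through bromobenzene livers at 10 h, with a group mean of 46.4 CPM. The group mean was 1.38 CPM in vehicle livers at 10 h. At 5 h it was 0.923 CPM in bromobenzene and 0.706 CPM in vehicle livers. At 10 h it had 2.38 to 159.8 CPM (median 16.7) in bromobenzene livers, against 0.708 to 2.24 CPM (median 1.33) in vehicle livers. At 5 h it had 0.477 to 1.497 CPM (median 0.847) in bromobenzene livers and 0.406 to 1.09 CPM (median 0.633) in vehicle livers. Every bromobenzene liver at 10 h was above every other liver library, and the groups overlapped at 5 h. The log2 difference between the responses was 4.69 (SE 0.95, edgeR adjusted p = 0.00398). Bromobenzene livers rose by 5.66 between 5 h and 10 h (SE 0.67, edgeR adjusted p = 6.33e-07), while the vehicle change of 0.97 did not pass (SE 0.69, edgeR adjusted p = 0.472).

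ENSRNOT00000019192.6, 1566 bases long, was the most abundant of the 4 transcripts given by ID. At 10 h it had 99.4 to 2415 CPM (median 693.4) in bromobenzene livers, against 23.4 to 37.9 CPM (median 33.7) in vehicle livers. At 5 h it had 25.3 to 176.2 CPM (median 34.7) in bromobenzene livers and 13.1 to 124.8 CPM (median 38.2) in vehicle livers. The groups were apart at 10 h and overlapped at 5 h. Its log2 difference was 4.48 (SE 0.79, edgeR adjusted p = 0.00133), with a rise of 3.99 in bromobenzene livers (SE 0.60, edgeR adjusted p = 2.56e-05) and a vehicle change of -0.49 that did not pass (SE 0.54, edgeR adjusted p = 0.682). Bromobenzene replicates 2, 4, 5 and 8 of the 10 h group had the 4 highest levels of both this transcript and ENSRNOT00000017181.4, and replicate 3 the lowest of both.

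The largest negative difference at a mean of at least 5 CPM belonged to ENSRNOT00000001876.6, 1086 bases long, in which only the vehicle livers passed for a change with time. At 10 h it had 8.47 to 37.4 CPM (median 17.4) in bromobenzene livers and 14.4 to 71.5 CPM (median 30.7) in vehicle livers. At 5 h it had 8.40 to 75.4 CPM (median 32.7) in bromobenzene livers, against 0.146 to 11.1 CPM (median 0.546) in vehicle livers. The 5 h vehicle livers were low in 6 of 8 libraries, at 1.51 CPM or less, while replicates 3 and 7 stood at 11.1 and 8.75 CPM and overlapped the lowest bromobenzene livers. The groups also overlapped at 10 h. In the lowest of these libraries, 3 counts make 0.145 CPM of the unscaled total. The log2 difference was -4.34 (SE 0.84, edgeR adjusted p = 0.00273). Vehicle livers rose by 3.62 with time (SE 0.64, edgeR adjusted p = 0.000168), and the change of -0.71 in bromobenzene livers did not pass (SE 0.56, edgeR adjusted p = 0.499). The response at 5 h, 3.49 (SE 0.63, edgeR adjusted p = 0.00116), was set against this low vehicle level, and at 10 h the response was -0.84 and did not pass (SE 0.56, edgeR adjusted p = 0.387).

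In ENSRNOT00000045356.3, 2625 bases long, the bromobenzene livers passed for a change with time and the vehicle livers came near the threshold. At 10 h it had 0.413 to 7.02 CPM (median 3.72) in bromobenzene livers and 2.39 to 16.1 CPM (median 6.57) in vehicle livers. At 5 h it had 8.36 to 32.2 CPM (median 20.1) in bromobenzene livers, against 1.71 to 6.71 CPM (median 2.35) in vehicle livers. All bromobenzene livers were above all vehicle livers at 5 h, and the groups overlapped at 10 h. The log2 difference was -3.63 (SE 0.62, edgeR adjusted p = 0.000774). Bromobenzene livers fell by 2.37 with time (SE 0.44, edgeR adjusted p = 0.000409), and the vehicle change of 1.27 did not pass (SE 0.43, edgeR adjusted p = 0.0623), though it did with DESeq2 (adjusted p = 0.0256). The vehicle change also passed with a trend on transcript length removed (edgeR adjusted p = 0.04995). Leaving out single liver libraries made it pass in 4 of 32 fits (lowest edgeR adjusted p = 0.03215). Its adjusted p ran between 0.0256 and 0.723 over the other alternatives. Within the libraries numbered 1 to 18 or 19 to 32 alone, none of the 4 transcripts passed, with edgeR adjusted p from 0.230 to 0.465 and log2 differences of 3.21 to 5.60 for the positive and -4.88 to -3.52 for the negative pair. With voom and sample weights ENSRNOT00000017181.4 did not pass (log2 difference 3.60, adjusted p = 0.246).

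**Figure D1:**
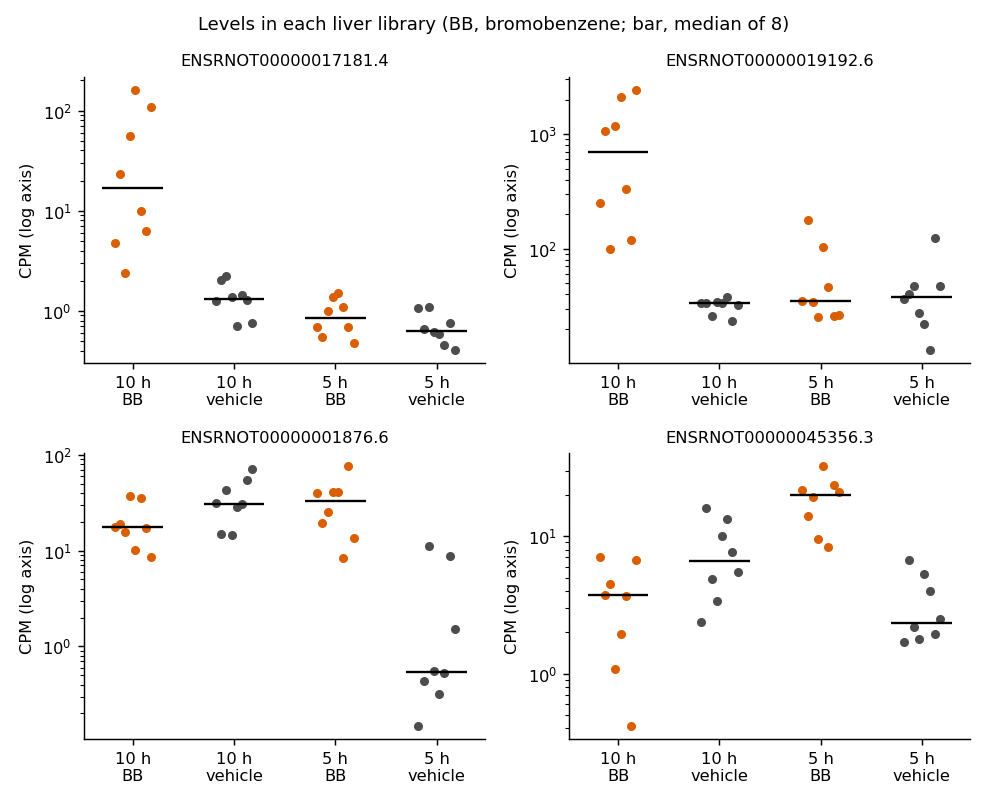
Level of the 4 transcripts in each liver library, in CPM on a log axis, for bromobenzene (BB) and vehicle livers at 10 h and 5 h (8 libraries a group, bar at the median). ENSRNOT00000017181.4 and ENSRNOT00000019192.6 have their highest levels in bromobenzene livers at 10 h, ENSRNOT00000001876.6 is low in most vehicle livers at 5 h, and ENSRNOT00000045356.3 is highest in bromobenzene livers at 5 h.

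The 330 transcripts with a more positive response at 10 h had a mean log2(CPM + 0.5) of 4.45 ± 0.177 in bromobenzene and 3.78 ± 0.0675 in vehicle livers at 10 h, and of 4.03 ± 0.0999 in bromobenzene and 4.22 ± 0.0398 in vehicle livers at 5 h (SD, n = 8 each). The 277 with a more negative response had 4.63 ± 0.0723 in bromobenzene and 5.11 ± 0.0647 in vehicle livers at 10 h, and 5.01 ± 0.161 in bromobenzene and 4.59 ± 0.0882 in vehicle livers at 5 h (SD, n = 8 each). In both sets the bromobenzene and vehicle livers did not overlap at either time, though at 5 h the nearest libraries almost met, at 4.14 and 4.15 in the more positive set and at 4.75 and 4.74 in the more negative set. These levels describe transcripts picked by the contrast itself and were not tested. By group mean, the more positive transcripts were highest in bromobenzene livers at 10 h in 212 cases and in vehicle livers at 5 h in 111, and lowest in vehicle livers at 10 h in 229. The more negative ones were highest in vehicle livers at 10 h in 175 cases and in bromobenzene livers at 5 h in 94. Over all 17535 transcripts tested, the highest mean was in bromobenzene livers at 10 h in 4859 and at 5 h in 4134. It was in vehicle livers at 10 h in 4295 and at 5 h in 4247, and vehicle livers at 10 h were lowest in 5060. Choosing by the contrast favours such orders of the groups among the called transcripts. Among 10 h bromobenzene livers, replicate 3 had the lowest level of the more positive set, 4.16, and replicate 8 the highest, 4.75. As a share of all estimated counts, the more positive set made up 1.89% ± 0.454 in bromobenzene and 1.07% ± 0.0729 in vehicle livers at 10 h, and 1.20% ± 0.0990 in bromobenzene and 1.45% ± 0.108 in vehicle livers at 5 h (SD, n = 8 each).

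**Figure D2:**
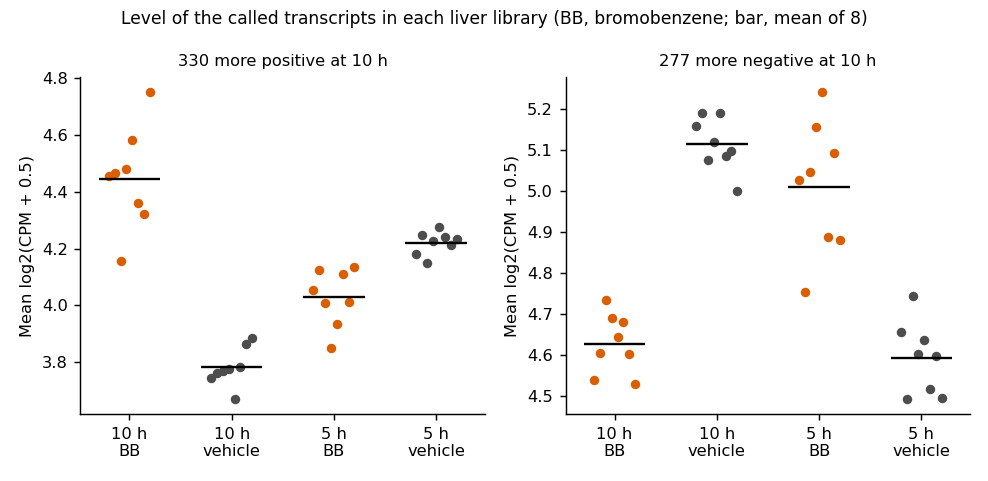
Mean log2(CPM + 0.5) of the 330 transcripts with a more positive and the 277 with a more negative response at 10 h, in each liver library (BB, bromobenzene; bar, mean of 8). In both sets the bromobenzene livers and the vehicle livers stand at different means at 10 h and 5 h, with the shift in opposite directions.

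Each difference equals the change with time in bromobenzene livers minus the change with time in vehicle livers. Over all transcripts tested, 1829 (10.4%) changed between 5 h and 10 h in bromobenzene livers and 1634 (9.32%) in vehicle livers. In bromobenzene livers 5.53% rose and 4.9% fell, and in vehicle livers 4.32% rose and 5% fell. These balances moved with the scaling: by library totals alone 1835 rose and 488 fell in bromobenzene livers, and 827 rose and 739 fell in vehicle livers. Among the 330 more positive transcripts the median change with time was 0.35 in bromobenzene livers and -0.34 in vehicle livers. Among the 277 more negative ones it was -0.38 in bromobenzene livers and 0.36 in vehicle livers. The median share of the difference that came from bromobenzene livers was 51.7% for the more positive and 51.98% for the more negative set, against 51.1% over all transcripts tested. Both sides pushed the same difference in 456 of 607 (75.1%), against 43.5% of all transcripts tested. The bromobenzene change took away from the difference in 83 and the vehicle change in 68, against 4958 and 4953 of all 17535 transcripts tested. These shares describe transcripts chosen by the difference, which favours opposite movements.

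Taken one at a time, the change in bromobenzene livers passed in 339 of the 607 and the change in vehicle livers in 291. Only bromobenzene livers passed in 270, only vehicle livers in 222, both in 69 and neither in 46, against 1269, 1074, 560 and 14632 of all 17535 transcripts tested. The count of 270 was 174 without 10 h bromobenzene replicate 8 and 407 without replicate 3 of that group. With voom and sample weights only bromobenzene livers passed in 290 and only vehicle livers in 354, so which of the 2 counts is higher depended on the tool. Where both passed, they moved opposite ways in 38 and the same way in 31. This split was not counted for the 560 of all transcripts, and choosing by the difference favours opposite ways. Of the more positive transcripts, 147 rose in bromobenzene livers with no vehicle call, and 127 fell in vehicle livers with no bromobenzene call. Of the more negative ones, 123 fell in bromobenzene livers with no vehicle call, and 95 rose in vehicle livers with no bromobenzene call.

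A call on one side and not on the other does not show that the sides differ in size, so their sizes were compared directly. The sum of the 2 changes with time was tested in the same fit: where it has the sign of the difference, bromobenzene livers changed more, and where it has the opposite sign, vehicle livers did. The sum passed for 2566 of all transcripts (14.6%; 7.29% positive and 7.35% negative) and for 244 of the 607. Bromobenzene livers changed more in 119 of these, 70 with a more positive and 49 with a more negative response. Vehicle livers changed more in 125, 70 and 55 by direction. For the other 363 the test did not settle which side was larger. Over all transcripts tested, bromobenzene livers changed more in 1281 and vehicle livers in 1285. ENSRNOT00000017181.4 and ENSRNOT00000019192.6 were among those with the larger change in bromobenzene livers (edgeR adjusted p = 3.96e-06 and 0.00169 for the sum), ENSRNOT00000001876.6 among those with the larger change in vehicle livers (edgeR adjusted p = 0.0138), and ENSRNOT00000045356.3 was not settled (edgeR adjusted p = 0.261). Without 10 h bromobenzene replicate 3 the count with the larger change in bromobenzene livers became 198.

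**Figure D3:**
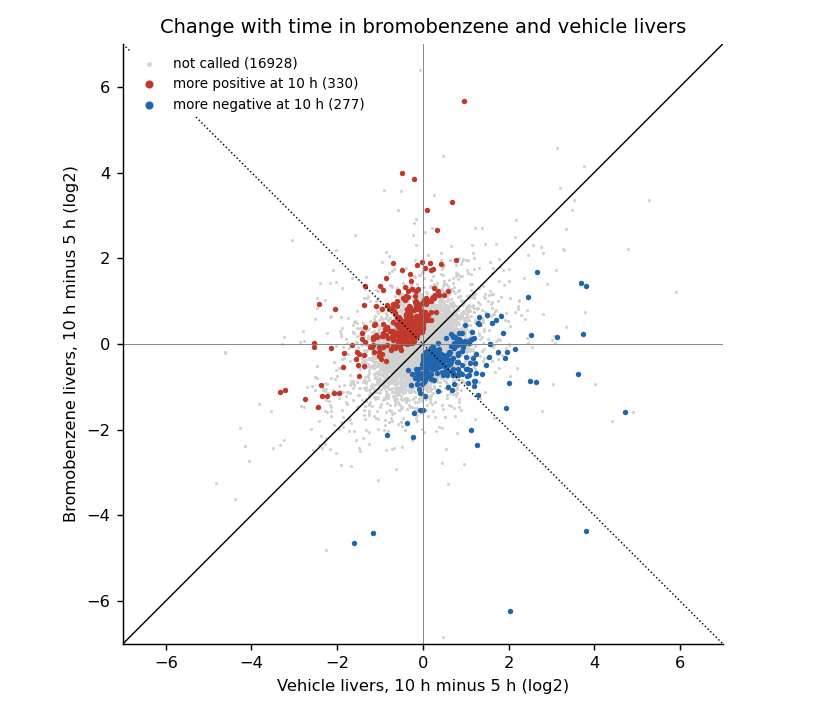
Change between 5 h and 10 h in bromobenzene livers (vertical axis, log2) against that in vehicle livers (horizontal axis, log2) for all 17535 transcripts tested. Vertical distance from the solid diagonal is the difference between the responses, so the called transcripts lie off it, and many of them stand near the dotted line, where both livers changed by equal amounts in opposite directions.

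The calls were then sorted by the response at each time, with 1967 responses called at 10 h (11.2% of transcripts tested, 6.18% higher and 5.04% lower) and 488 at 5 h (2.78%, 1.53% higher and 1.25% lower). Without 5 h bromobenzene replicate 2 the 5 h count became 758. By library totals alone 1431 were higher and 653 lower at 10 h, and 194 higher and 241 lower at 5 h. The biggest class held 248 of the 1007 transcripts that rose in bromobenzene livers at 10 h and were not called at 5 h. The 248 had a median response of 0.74 at 10 h and -0.10 at 5 h. In 120 of these only bromobenzene livers had risen with time. In 84 only vehicle livers had changed, by falling, and in 14 both moved, in opposite directions. Of all transcripts tested, 804 fell at 10 h only, and 161 of these had a called difference. The 161 had a median response of -0.53 at 10 h and 0.08 at 5 h. They included 84 that had fallen with time in bromobenzene livers alone and 48 that had risen in vehicle livers alone. By the test of sizes, bromobenzene livers changed more in 63 of the 248 and 30 of the 161, and vehicle livers in 50 and 30.

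Among all transcripts tested, 188 rose and 144 fell at 5 h only, and 76 and 40 of these had a called difference. The 76 that rose at 5 h only had a median response of -0.20 at 10 h and 0.96 at 5 h. In 24 of them bromobenzene livers alone fell with time, in 34 vehicle livers alone rose, and in 8 both moved in opposite directions. The median change with time was -0.45 in bromobenzene livers and 0.70 in vehicle livers. Bromobenzene livers changed more in 9 of the 76, vehicle livers in 20, and 47 were not settled. Of the 40 that fell at 5 h only, bromobenzene livers alone rose with time in 12 and vehicle livers alone fell in 22, with the larger change in bromobenzene livers in 2 and in vehicle livers in 10. Whether the sides' shares differ between the classes was not tested.

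Some transcripts responded in opposite directions at the 2 times. In 12 transcripts bromobenzene lowered the level at 10 h and raised it at 5 h, with median responses of -0.62 and 0.73, and in 7 it raised the level at 10 h and lowered it at 5 h, with medians of 0.49 and -0.41. These 12 and 7 were all the transcripts tested with opposite calls at the 2 times, and such calls favour a called difference. In 5 of those 7 only vehicle livers had changed with time, by falling. A further 58 transcripts passed the test of the difference with no call at either time, of 15236 such transcripts tested. Another 5 were called in the same direction at both times, of 137 such transcripts. Sizes of the 2 responses were compared through their sum, called for 9.99% of all transcripts. The 10 h response was larger in 200 of the 607, the 5 h response in 38, and 369 were not settled. Over all transcripts tested these counts were 1258, 494 and 15783. Without 5 h bromobenzene replicate 2, the count with the larger 5 h response became 84, and without 10 h bromobenzene replicate 3 the count with the larger 10 h response became 315.

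**Figure D4:**
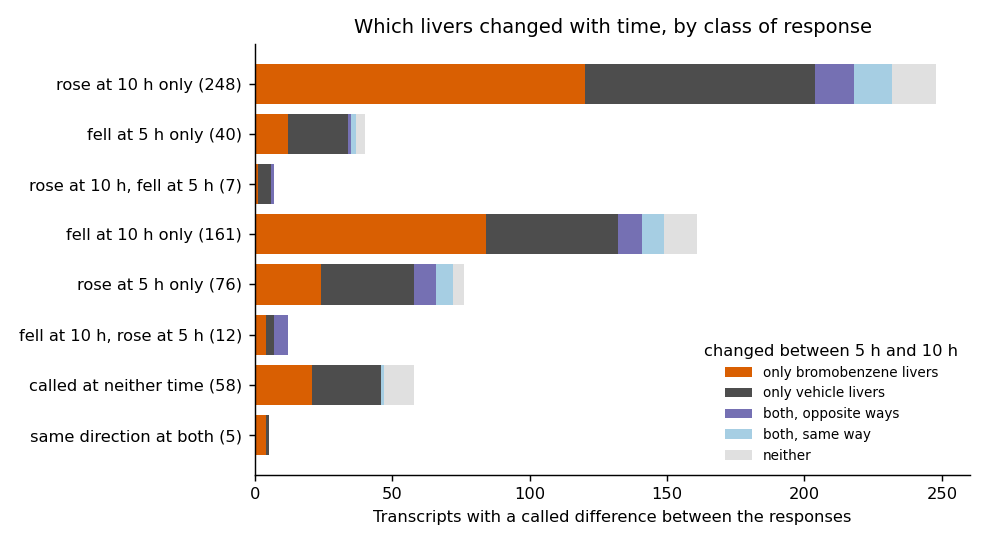
Number of transcripts with a called difference between the responses, by class of response at 10 h and 5 h (rows, class size in parentheses), split by which livers changed between 5 h and 10 h at an adjusted p under 0.05. Of the 248 transcripts that rose at 10 h only, bromobenzene livers alone changed in 120 and vehicle livers alone in 84, and of the 76 that rose at 5 h only, in 24 and 34.

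Comparing groups across both agent and time gave a further description. Bromobenzene livers at 10 h and vehicle livers at 5 h differed in 2555 transcripts (14.6%), and bromobenzene livers at 5 h and vehicle livers at 10 h in 1878 (10.7%). Among the 607, these were 267 and 188, so 340 and 419 were not called in them. ENSRNOT00000001876.6 differed between bromobenzene livers at 10 h and vehicle livers at 5 h (log2 difference 2.78, SE 0.62, edgeR adjusted p = 0.00186), and did not pass between bromobenzene livers at 5 h and vehicle livers at 10 h (-0.13, SE 0.55, edgeR adjusted p = 0.934). For ENSRNOT00000045356.3 the first of these log2 differences was 0.14 (SE 0.44, edgeR adjusted p = 0.893) and the second 1.24 (SE 0.42, edgeR adjusted p = 0.0543), and neither passed. These comparisons share groups with the difference itself.

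The calls varied with the level and length of the transcript. The share called was 0.694% of transcripts under 1 CPM, 3.60% at 5 to 20 CPM and 7.45% at 100 CPM and over. At 100 CPM and over, 29 were more positive and 59 more negative, while at 5 to 20 CPM 116 were more positive and 64 more negative. The median length was 2840 bases for the more positive and 1971 for the more negative set, against 2163 for all transcripts tested. The difference followed length over all transcripts too. Its median was -0.09 under 1000 bases and 0.15 at 5000 bases and over, where bromobenzene livers had a median change with time of 0.05 and vehicle livers of -0.11. At 5000 bases and over 49 transcripts were more positive and 10 more negative. With the trend on length removed from each library there were 642 calls, 305 more positive and 337 more negative, of which 530 were among the 607, and the median lengths became 2410 and 2298 bases.

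**Figure D5:**
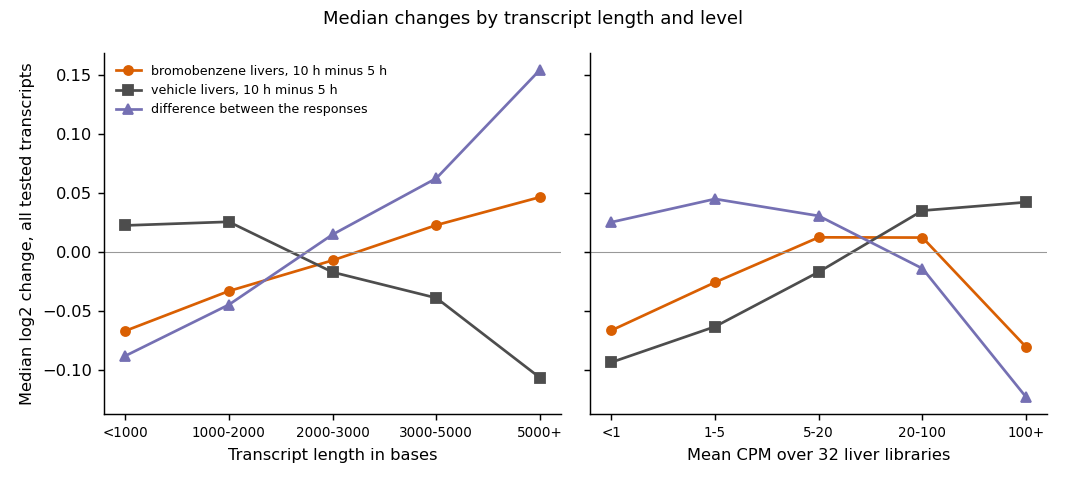
Median log2 change over all transcripts tested, by transcript length (left) and mean level over the 32 liver libraries (right), for bromobenzene livers and vehicle livers between 5 h and 10 h and for the difference between the responses. The difference runs with length between -0.09 and 0.15, with bromobenzene and vehicle livers moving in opposite directions, and is lowest, at -0.12, for transcripts at 100 CPM and over.

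In kidney the same contrast gave 27 calls among 20004 transcripts tested (0.135%), a count that ran between 13 and 86 when single kidney libraries were left out. It was 13 without 10 h bromobenzene replicate 1 or 5 h vehicle replicate 4, 15 to 17 without 10 h bromobenzene replicates 6 or 8, 10 h vehicle replicates 5, 6 or 7, 5 h bromobenzene replicates 3 or 5, or 5 h vehicle replicates 2 or 3, 51 without 5 h vehicle replicate 8, and 86 without 5 h bromobenzene replicate 8. The last 2 libraries named also had levels of ENSRNOT00000045356.3 outside the range of the rest of their groups. Vehicle replicate 8 had 12.71 CPM, against 0.6486 to 2.344 CPM in the rest of the 5 h vehicle kidneys. Bromobenzene replicate 8 had 0.1626 CPM, against 4.069 to 31.48 CPM in the rest of the 5 h bromobenzene kidneys. Each level was thus within or beyond the range of the opposite group. The 27 calls and the organ test include both of these libraries, and whether their group labels are right was not tested. Of the 607 liver transcripts 596 were tested in kidney and 5 passed there, all in the liver direction. The change with time was called for 48 of the 596 in bromobenzene kidneys and 72 in vehicle kidneys, against 3.33% and 5.68% of all 20004 kidney transcripts. Of the 16894 transcripts tested in both organs, 531 rose and 507 fell with time in vehicle kidneys. The median kidney difference of the 596 was 0.05 for the more positive and -0.03 for the more negative set. Whether the organs differ was tested as the liver difference minus the kidney difference, in one fit of all 64 libraries, and passed for 382 of 14110 transcripts (2.71%). The series description counts 32 rats for both organs, and the labels do not say which liver and kidney came from one rat. The fit therefore took them as separate rats, and the effect of shared rats on these p-values was not tested. Of the liver set 567 were in that test and 285 passed, each with the sign of the liver difference, which the choice of the transcripts favours. ENSRNOT00000017181.4 (4.26, SE 0.92, edgeR adjusted p = 0.00521) and ENSRNOT00000019192.6 (3.60, SE 0.90, edgeR adjusted p = 0.0171) differed between the organs. ENSRNOT00000001876.6 (-2.39, SE 1.22, edgeR adjusted p = 0.336) and ENSRNOT00000045356.3 (-0.73, SE 1.06, edgeR adjusted p = 0.785) did not pass. In kidney alone, with both 5 h replicates numbered 8 included, the difference of ENSRNOT00000045356.3 was -2.90 (SE 0.86, edgeR adjusted p = 0.199). A single library moved its call: without 5 h kidney vehicle replicate 8 it was -4.09 and passed (SE 0.75, edgeR adjusted p = 0.0113), and the liver minus kidney value became 0.44 and did not pass. Without 10 h liver bromobenzene replicate 3 the organ test passed for 683 transcripts.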

How the data were processed

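Polyadenylated RNA of 32 livers, with 32 kidneys for one comparison, had been sequenced as stranded read pairs, per the labels' protocols. Reads were quantified with kallisto 0.42.4 (build Rnor_6.0), per the submitters' processing notes. The authors deposited, per library, estimated counts (unnormalized, shared reads divided among transcripts) and TPM (scaled for effective length and library). Isoforms and near-identical copies are therefore uncertain. Trimming and the annotation release were not stated in these sources.

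After rounding of the estimated counts, filterByExpr kept transcripts (at its settings of 10 per library and 15 in total). One edgeR model (version 4.0.16, R 4.3.3) with TMM factors covered the 4 liver groups without a covariate, using estimateDisp, glmQLFit and glmQLFTest with robust set. All p-values were Benjamini-Hochberg adjusted over all transcripts tested, with a threshold of 0.05. The scripts were tested on simulated data. CPM values use TMM-scaled libraries. The organ test kept transcripts at a mean of 1 CPM in each tissue. Tests of sums and crossed groups, the length correction, and leaving out single libraries in the kidney and organ tests were added after the data were seen. The comparison and lists were chosen with earlier results of these data known. Without gene symbols, the rule named the 2 most positive and 2 most negative called transcripts with a mean of at least 5 CPM. Among 112 pairs of libraries within a group, the lowest chi-square per degree of freedom was 17.7, so each counted as a sample. Replicate numbers follow record order and pair nothing. DESeq2 1.42.0 and limma 3.58.1 served as alternatives.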

Additional observations from a re-analysis of the deposited data

Results flagged for a closer look

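In ENSRNOT00000019192.6 1 vehicle liver at 5 h, replicate 7, stood apart from its group at 124.8 CPM, with a gap to the next library of 0.692 of the group's range. Without it the log2 difference between the responses was 4.06, and it still passed. In kidney 4 libraries stood apart by the same measure. ENSRNOT00000019192.6 was at 18.1 CPM in 5 h bromobenzene replicate 2 (0.782 of the range) and at 7.22 CPM in 10 h vehicle replicate 4 (0.764). ENSRNOT00000001876.6 was at 16.5 CPM in 5 h bromobenzene replicate 5 (0.801), and ENSRNOT00000045356.3 at 12.7 CPM in 5 h vehicle replicate 8 (0.859). These 5 came from 48 groups of liver and kidney values examined. A chance rate of about 1 in 20 was assumed and not checked for values spread as these are.

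The responses at 10 h and 5 h differed by test for all 4 transcripts given by ID, with log2 differences of 4.69 for ENSRNOT00000017181.4, 4.48 for ENSRNOT00000019192.6, -4.34 for ENSRNOT00000001876.6 and -3.63 for ENSRNOT00000045356.3. The 4 were picked by the size of this difference among called transcripts, so the choice set that they passed. The difference was also larger in liver than in kidney, by 4.26 for ENSRNOT00000017181.4 and 3.60 for ENSRNOT00000019192.6, which the choice favours.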

How the results depend on the processing

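The 607 differences kept their sign in every alternative in which they were tested, between 509 and 607 of them, leaving out single libraries included. The alternatives refit the libraries, or part of them, by which the 607 were chosen, which favours a kept sign. The causes of the changes in count were not tested. The count ran from 464 (without 10 h bromobenzene replicate 8) to 865 (without replicate 3 of that group), and was 919 with DESeq2. Left out singly, libraries gave 339 to 758 calls for the 5 h response, 1480 to 2609 for the 10 h response, 1574 to 2140 for bromobenzene livers with time, 1348 to 1781 for vehicle livers with time, 85 to 198 differences with the larger change in bromobenzene livers, 107 to 158 with the larger change in vehicle livers, 13 to 86 in kidney and 292 to 683 in the organ test. The 758 came without 5 h bromobenzene replicate 2. With voom and sample weights 2618 transcripts changed with time in vehicle livers. In kidney, totals alone gave 45 and DESeq2 145. Libraries 1 to 18 alone (5 bromobenzene and 6 vehicle at 10 h, 2 and 5 at 5 h) gave 13 differences, 870 calls at 10 h, 0 at 5 h, 170 with time in bromobenzene and 701 in vehicle livers, and 3 and 4 differences with the larger change in bromobenzene or vehicle livers. Libraries 19 to 32 alone (3 and 2 at 10 h, 6 and 3 at 5 h) gave 0 differences, 3 and 13 calls at 10 h and 5 h, 330 and 116 with time, and 0 differences with the larger change on either side. For the difference in libraries 19 to 32, edgeR left 1471 transcripts at an unadjusted p under 0.05, and DESeq2 and limma were not tried. In libraries 1 to 18, the 5 h response had 0 calls with edgeR, the sole tool used there, and 956 at an unadjusted p under 0.05. The library numbers are not called a batch in the labels, and as a covariate they gave 651 calls. Scaling by totals gave 1835 higher and 488 lower changes with time in bromobenzene livers, against 969 and 860 with TMM. Sums per gene were not run, since no ID matched a gene. No paired analysis was run. The labels number the libraries through the series, with no replicate number shared between groups and no tie between a liver and a kidney of one rat. The kidney libraries repeat the order of groups of the liver libraries, but the labels state no pairing.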

Other observations

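Vehicle kidneys also changed with time, in 1137 of 20004 transcripts (5.68%). Of the 531 of these that rose in vehicle kidneys and were tested in liver, 106 rose and 10 fell with time in bromobenzene livers, and 117 rose and 14 fell in vehicle livers. Of the 507 that fell in vehicle kidneys, 20 rose and 87 fell in bromobenzene livers, and 16 rose and 85 fell in vehicle livers. The median change with time of the kidney risers was 0.18 in bromobenzene and 0.11 in vehicle livers, and of the kidney fallers -0.12 in bromobenzene and -0.08 in vehicle livers, against -0.01 in both over all transcripts tested in both organs. Of all 16894 of these, 958 rose and 835 fell in bromobenzene livers, and 744 rose and 854 fell in vehicle livers. The difference between the liver responses was called as more positive for 10 and more negative for 31 of the kidney risers, and for 21 and 10 of the kidney fallers, against 327 and 269 of the 16894. The median difference had the opposite sign to the balance of these calls, at 0.06 for the risers and -0.04 for the fallers. By the series description, each rat gave both organs.

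The median spread between libraries of a group was wider in bromobenzene than in vehicle livers at both times, which was not tested. The median SD of log2(CPM + 0.5) within a group, over all transcripts tested, was 0.292 in bromobenzene and 0.238 in vehicle livers at 10 h, and 0.291 in bromobenzene and 0.242 in vehicle livers at 5 h.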
